A study of Mus musculus with 8 samples.

Results

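Chromatin loops at the start sites of ATF4 and of 8 further regulators of the cellular stress response were examined in H3K27ac HiChIP data from HPC-7 cells. The set held Atf4, Ddit3, Atf3, Atf5, Ppp1r15a, Ppp1r15b, Chac1, Sesn2 and Ddit4, 9 of the 21751 protein-coding genes of the mouse annotation used here (GENCODE M39, genome build GRCm39). Members were given by gene name. A loop belonged to a gene when 1 of its 5 kb bins held the start site of the gene's canonical transcript, and such a loop is called a promoter loop. Promoter loops were listed for 8 of the 9 genes and for 10513 of all genes. The 8 genes had 142 different promoter loops, of 66950 promoter loops of all genes and 214313 loops of any kind.

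HiChIP enriches crosslinked, cut chromatin with an antibody and ligates DNA ends that lie close together within it. The antibody used recognises H3K27ac, an acetylated histone found at active enhancers and promoters. HPC-7 is a mouse haematopoietic progenitor line. The cells had been transduced with a retroviral vector for CEBPA, a myeloid transcription factor made as full-length p42 or as a shorter form, p30, that is found in leukaemia. Each line carried 1 of these isoforms and was sorted for GFP. Cells were kept untreated (UT) or exposed to lipopolysaccharide (LPS, 100 ng/mL) for 2 h, which gave 4 groups (UT and LPS in p30, UT and LPS in p42) with 2 replicates each, 8 libraries in all. Per the study's methods, the isoforms in its p42 and p30 HPC-7 lines were fused to ERT2, so that they entered the nucleus on addition of 4-OHT, given before the experiment. Lines with constitutive isoforms were also made, and the labels of these libraries name neither the construct nor 4-OHT. Each group came as 1 list of loops, so no spread between replicates could be measured, and every test below compares those libraries and not the conditions.

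The lists held 80489 loops (UT) and 94609 (LPS) in p30 and 158233 (UT) and 78591 (LPS) in p42, all with a q-value under 0.01. The contacts that entered the loop caller's model, used here as depth and given as rounded numbers, were 17977000 and 14503000 in p30 (UT and LPS) and 19000000 and 15832000 in p42 (UT and LPS). Because the p42 UT list was the longest, loop numbers are also given for lists of equal size, each cut to the 78591 smallest q-values. Start-site bins of 7 of 7 progenitor marker genes had an H3K27ac peak in every list. Of 10 granulocyte marker genes 4 to 7 had a start-site bin in the lists, each with a peak. No start-site bin of 3 T cell marker genes was listed. Of 3 hepatocyte marker genes 1 had a listed bin, in p42 UT, without a peak. Whether bins that are not listed had a peak is unknown.

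In the integrated stress response, several kinases phosphorylate the translation factor eIF2α, which lowers general protein synthesis and favours translation of ATF4. ATF4 is a bZIP transcription factor that forms dimers with members of the C/EBP and AP-1 families and activates genes for amino acid supply, redox balance and, when stress persists, cell death. Ddit3 (CHOP), Atf3 and Atf5 encode further bZIP factors of the same response. Ppp1r15a (GADD34) and Ppp1r15b (CReP) encode the stress-inducible and the constitutive subunit that direct protein phosphatase 1 to eIF2α and so restore translation. Chac1 encodes a glutathione-degrading enzyme, while Sesn2 and Ddit4 (REDD1) encode inhibitors of mTORC1 signalling. The comparisons of p42 with p30 and of LPS with UT ask how the contacts of these loci differ between the isoforms and with the treatment.

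Promoter sequences are shown for 4 members that held at least 1 of 4 searched motifs between 250 bases before and 50 bases after the start site. Searched on both strands were the C/EBP-ATF composite element (TGATGNAA), to which dimers of C/EBP and ATF4 bind, the C/EBP site (TTGCNNAA), the cAMP response element (TGACGTCA) and the AP-1 site (TGANTCA). Each is given 5′ to 3′ on the strand of its gene, up to the base before the start site, as read from the GRCm39 genome, with motif matches in capitals. They lie at chr10:127126310-127126559 (plus strand) for Ddit3, at chr1:190915538-190915787 (minus strand) for Atf3, at chr2:119181439-119181688 (plus strand) for Chac1 and at chr7:45175693-45175942 (minus strand) for Ppp1r15a.
Ddit3: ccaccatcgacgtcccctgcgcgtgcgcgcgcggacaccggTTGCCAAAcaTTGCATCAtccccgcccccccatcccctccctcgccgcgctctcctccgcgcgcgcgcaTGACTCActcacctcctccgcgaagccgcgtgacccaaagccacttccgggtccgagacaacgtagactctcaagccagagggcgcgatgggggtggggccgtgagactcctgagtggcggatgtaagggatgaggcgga
Atf3: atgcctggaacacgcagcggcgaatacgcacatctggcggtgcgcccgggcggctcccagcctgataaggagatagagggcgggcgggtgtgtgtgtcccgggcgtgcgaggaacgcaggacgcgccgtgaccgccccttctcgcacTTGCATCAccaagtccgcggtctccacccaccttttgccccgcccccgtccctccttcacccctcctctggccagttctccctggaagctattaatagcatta
Chac1: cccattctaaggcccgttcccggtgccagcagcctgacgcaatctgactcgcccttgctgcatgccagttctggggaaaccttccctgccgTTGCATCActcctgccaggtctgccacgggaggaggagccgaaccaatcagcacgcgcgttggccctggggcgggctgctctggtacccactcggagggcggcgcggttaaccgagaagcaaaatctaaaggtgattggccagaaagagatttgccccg
Ppp1r15a: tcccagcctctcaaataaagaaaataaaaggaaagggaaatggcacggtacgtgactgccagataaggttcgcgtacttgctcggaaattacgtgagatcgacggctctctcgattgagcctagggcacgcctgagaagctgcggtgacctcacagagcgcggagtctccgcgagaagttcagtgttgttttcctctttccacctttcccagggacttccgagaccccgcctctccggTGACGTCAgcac

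Among the promoters shown, the composite element was found in Ddit3, Atf3 and Chac1, and 3.85% of the 21751 promoters of all genes hold it. Counted from the start site, it began at position -199 in Ddit3, -103 in Atf3 and -159 in Chac1. In all 3 the opposite strand carried it, so that the printed strand reads TTGCATCA. Ddit3 also held a C/EBP match (TTGCCAAA) and an AP-1 match (TGACTCA), which 10.7% and 7.14% of all promoters hold. Ppp1r15a held the cAMP response element, which began at position -12 and is held by 2.45% of all promoters. No 2 matches overlapped. The promoters of Atf4, Atf5, Sesn2 and Ddit4 held none of these motifs within the window. A match describes the sequence and does not show that a factor was bound.

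Taken over the 9 genes, the lists held 63 promoter loops (UT) and 80 (LPS) in p30 and 114 (UT) and 65 (LPS) in p42. Cut to equal size they held 61, 78, 73 and 65 in the same order, so most of the surplus of p42 UT went with the length of its list. The 8 genes with loops had a median of 8 promoter loops (UT) and 11 (LPS) in p30 and 16 (UT) and 6 (LPS) in p42, where all genes with a promoter loop had a median of 2, 2, 4 and 2. Of the 142 loops 31 (21.8%) were in all 4 lists, against 17.8% of all promoter loops. Loops in a single list numbered 54 (38.0%, against 46.5%), of which 28 were in p42 UT (19.7% of the 142, against 27.6%), 15 in p30 LPS (10.6%, against 8.62%), 9 in p30 UT (6.34%, against 5.78%) and 2 in p42 LPS (1.41%, against 4.56%). In lists of equal size, of 121 loops 8 were in p42 UT alone (6.61%, against 10.1%), 21 in p30 LPS (17.4%, against 11.9%), 10 in p30 UT (8.26%, against 11.4%) and 5 in p42 LPS (4.13%, against 10.2%). Both p42 lists but no p30 list held 11 (7.75%, against 5.13%), and 6 of these 11 were loops of Ppp1r15b. Both p30 lists alone held 2 (1.41%, against 1.53%), both UT lists alone 4 (2.82%, against 4.91%) and both LPS lists alone 0 of 142, where 788 of 66950 loops of all genes had this last pattern.

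**Figure D1:**
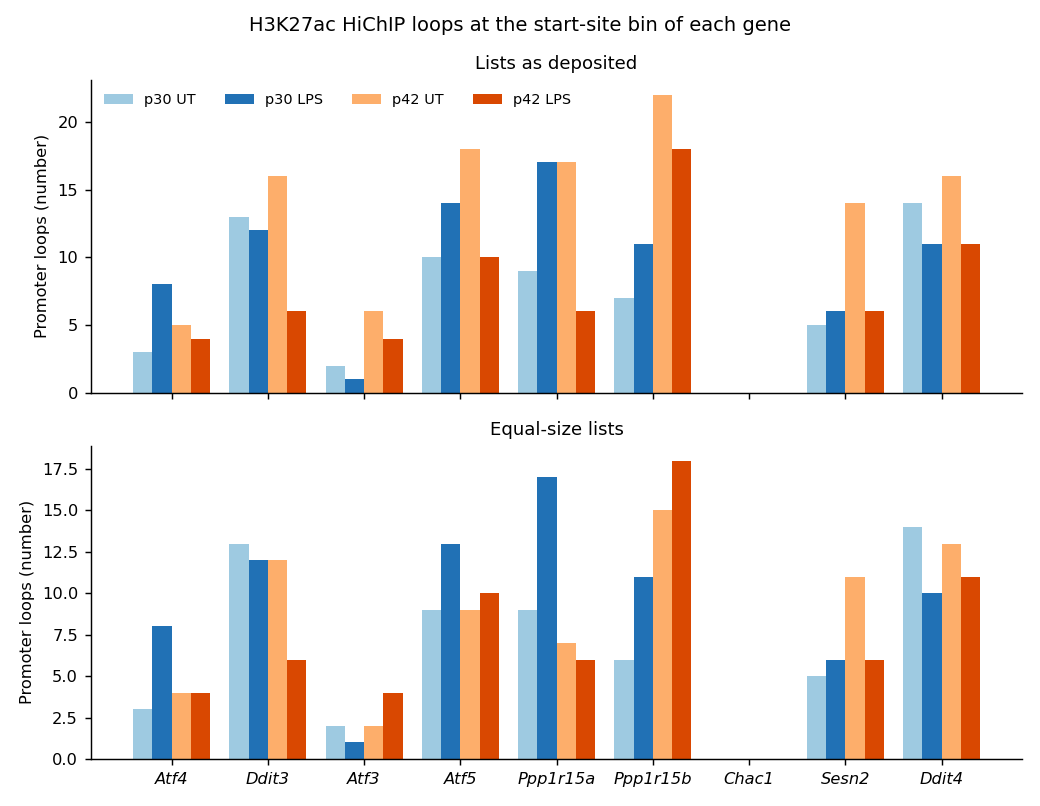
Number of promoter loops (vertical axis) of each of the 9 genes in the 4 lists (bars), for the lists as deposited (top) and for lists of equal size (bottom), with 1 pooled list per group and no error bars. Ppp1r15b had 7 and 11 loops in the p30 lists and 22 and 18 in the p42 lists, and Chac1 had none. After merging adjacent bin pairs (not drawn) Ppp1r15b had 3 and 5 in p30 and 2 and 3 in p42.

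In untreated cells all 8 genes had more promoter loops in p42 than in p30, as had 81.9% of all genes, and none had fewer, against 8.25%. With lists of equal size 3 had more (41.8% of all genes), 3 had fewer (37.7%) and 2 had as many. After LPS 2 had more in p42 (23.6% of all genes) and 4 fewer (58.7%), and with lists of equal size 3 more (33.7%) and 4 fewer (46.7%). LPS went with more loops at 5 genes in p30 (53.1% of all genes) and fewer at 3 (27.6%), and lists of equal size gave 5 (42.3%) and 3 (36.8%) as well. In p42 it went with more loops at 0 genes (4.51%) and fewer at 8 (87.3%), and with lists of equal size with more at 3 (31.8%) and fewer at 4 (46.4%). In the deposited lists the larger of the shares, more or fewer, was the same for these genes as for all genes in each comparison.

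Partner bins lay 10 to 455 kb from the start site, with a median of 52.5 kb. Of the 142 partner bins 79 were upstream and 63 downstream of the gene, 30 held the start site of a coding gene, and 128 had an H3K27ac peak in at least 1 list. In untreated cells 52 loops of the set were shared by both isoforms, 82.5% of the p30 list and 45.6% of the p42 list, against 78.7% and 40.9% over all promoter loops. After LPS 44 were shared, 55.0% of the p30 list and 67.7% of the p42 list, against 51.0% and 65.3%. Nearly every loop of the set in p42 LPS (63 of 65, 96.9%) was also listed in p42 UT, against 81.6% over all promoter loops. The p42 UT list was the longer, and in lists of equal size the share for the set was 83.1%. In p30, 42 loops were shared between the treatments, 66.7% of the UT list and 52.5% of the LPS list, against 64.7% and 53.3%. Where bins could differ by 1 bin, 79.8% of the p42 UT loops were in p30 UT and 96.9% of the p42 LPS loops in p30 LPS. In the same way 85.0% of the p30 LPS loops were in p30 UT and 100% of the p42 LPS loops in p42 UT. Shares over all promoter loops were not computed for shifted bins or for lists of equal size.

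Contacts, the ligation products counted between both bins of a loop, were summed for each gene over its loops present in all 4 lists, and the share of 1 list in the sum of 2 was set against the share given by the modelled contacts. The exact binomial test was two-sided, and its p-values were adjusted by Benjamini-Hochberg over all 5040 genes with such loops. Of the 9 genes 7 could be tested, and Atf3 and Chac1 had no loop in all 4 lists. The median gene was itself shifted, by a log2 ratio of 0.34 for p42 over p30 in UT, of -0.25 after LPS, of 0.28 for LPS over UT in p30 and of -0.31 in p42. A second form of the test, added after the data were seen, therefore set the null share at the median gene, and in another form the caller's expected counts, which carry distance and bin coverage, were the null. The 4 comparisons share lists in pairs and are not independent. Shares are given with 95% Wilson intervals, which cover counting error only.

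In untreated cells 3 of the 7 genes, Atf4, Ddit3 and Ppp1r15b, had more contacts in p42 than in p30 (30% of all genes tested) and none fewer (0.258%). Relative to the median gene Ppp1r15b alone was called (7.6% of all genes, either direction), and relative to expected counts Atf4 and Ddit3 were called (15.5%). After LPS Ppp1r15b was higher in p42 (0.873% of all genes) and Ppp1r15a lower (16.2%), of which Ppp1r15b alone was called relative to the median gene (5.48%) and neither relative to expected counts (2.58%). LPS went with more contacts at Atf4, Atf5 and Ppp1r15a in p30 (18.9% of all genes) and with fewer at none (0.238%). Of these calls none held relative to the median gene (3.45%), and that of Ppp1r15a held relative to expected counts (5.32%). In p42 LPS went with fewer contacts at Ddit3 and Ddit4 (24.9%) and with more at none (0.238%), and no member was called relative to the median gene (2.1%) or to expected counts (8.31%). The median log2 ratio over the 7 genes was 0.45, -0.14, 0.34 and -0.27 in the order of these comparisons.

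**Figure D2:**
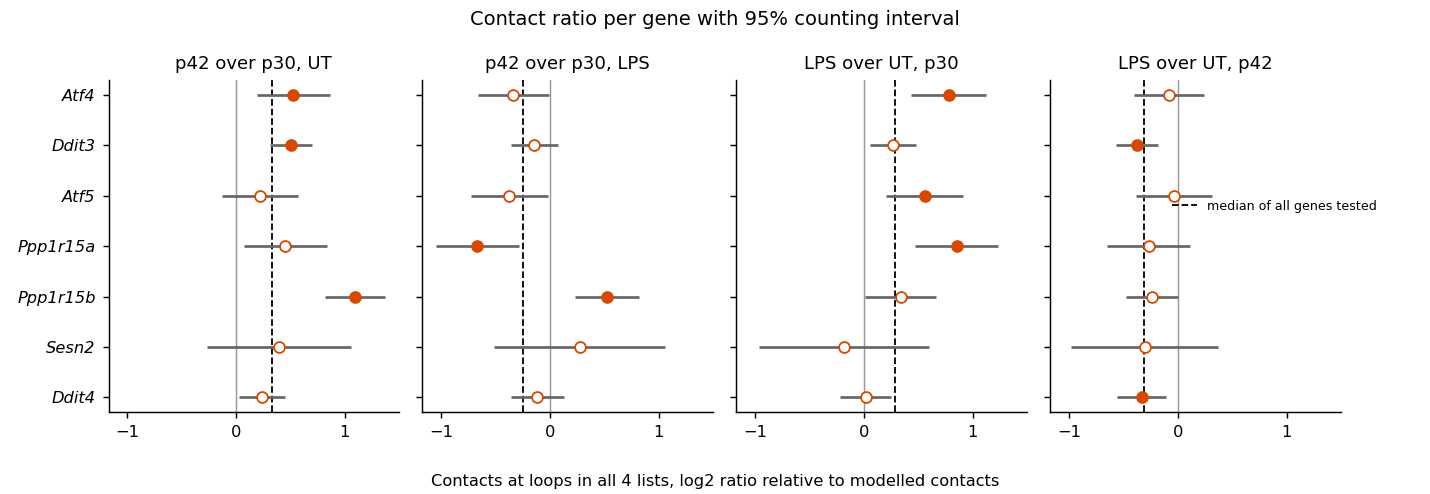
Contacts at loops in all 4 lists as a log2 ratio relative to modelled contacts (horizontal axis) for 7 genes in 4 comparisons, with 95% counting intervals (bars). Filled points have an adjusted p under 0.05 and the dashed line marks the median of all 5040 genes. The interval of Ppp1r15b lay above the median gene in both comparisons of p42 with p30.

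Ppp1r15b was the single member called higher in p42 both in UT and after LPS. It lies on chromosome 1 from 133058881 to 133067539 (plus strand), and its start-site bin runs from 133055001 to 133060000. This bin had 7 promoter loops (UT) and 11 (LPS) in p30 and 22 (UT) and 18 (LPS) in p42, and 6, 11, 15 and 18 in lists of equal size. After merging adjacent bin pairs there were 3 (UT) and 5 (LPS) in p30 and 2 (UT) and 3 (LPS) in p42. The larger number in p42 was thus one of neighbouring bins and not of separate loops. Nearly all led upstream, 21 of the 23 different loops, across the body of Pik3c2b, a lipid kinase gene, to Mdm4, an inhibitor of p53. Its 5 loops in all 4 lists held 150 contacts (UT) and 153 (LPS) in p30 and 339 (UT) and 240 (LPS) in p42, so that both p42 lists exceeded both p30 lists. In UT p42 gave 69.3% of the summed contacts (95% interval 65.1 to 73.2), where modelled contacts gave 51.4%, a log2 ratio of 1.10 (adjusted p = 6.59e-14, exact binomial test). After LPS it was 61.1% (56.2 to 65.8), where modelled contacts gave 52.2%, a log2 ratio of 0.52 (adjusted exact p = 0.00535). Against the median gene the log2 ratios were 0.76 in UT and 0.78 after LPS (adjusted exact p = 4.03e-06 and 2.59e-05). Expected counts gave shares of 65.5% and 64.2%, close to the measured ones, and with these as the null the difference was not called (adjusted exact p = 0.235 in UT and 0.716 after LPS). The call after LPS was also lost at q under 0.001 and with loops of at least 20 kb, both of which leave out the loop at 10 kb (log2 ratio 0.13 in each, adjusted exact p = 0.814 and 0.892), while that in UT held (0.70 in each, adjusted exact p = 0.0023 and 0.00328).

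Coverage of the Ppp1r15b start-site bin was 7128 reads (UT) and 8401 (LPS) in p30 and 16275 (UT) and 11642 (LPS) in p42. The p42 to p30 ratio of reads was 2.28 in UT and 1.39 after LPS. Scaled to the mean coverage of peak bins, its log2 ratio lay above those of 99.3% of 6645 start-site bins with a peak in UT and of 98.9% of 6011 after LPS. Contacts and coverage were both higher in p42 at this gene, and expected counts carry this coverage.

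Its loop with the bin from 133045001 to 133050000, 10 kb upstream and free of annotated coding genes, held 65 contacts (UT) and 75 (LPS) in p30 and 193 (UT) and 147 (LPS) in p42. These were 1.67, 2.06, 2.38 and 2.09 times the expected number. Of the contacts in UT 74.8% came from p42 (69.2 to 79.7), where expected counts gave 67.5%, and after LPS 66.2% (59.8 to 72.1), where they gave 65.9%. Coverage of this upstream bin was 3129 reads (UT) and 2813 (LPS) in p30 and 9065 (UT) and 5804 (LPS) in p42, with a peak in every list. The loop with the start site of Pik3c2b, 85 kb upstream, held 13, 17, 44 and 24 contacts in the same order. In UT 77.2% came from p42 (64.8 to 86.2) where expected counts gave 55.2%. After LPS it was 58.5% (43.4 to 72.2) where they gave 55.7%. The neighbouring bin at 90 kb held 20, 21, 45 and 22 contacts, 7.97, 9.26, 14.5 and 7.67 times the expected number. At the start site of Mdm4, 105 kb upstream, counts were 23 (UT) and 17 (LPS) in p30 and 23 (UT) and 19 (LPS) in p42, which gave no detectable difference at this depth (50.0% from p42 in UT, 36.1 to 63.9). Bins within Pik3c2b at 25, 30, 35, 70 and 80 kb were looped in both p42 lists and in neither p30 list, with 14 to 51 contacts in p42 UT and 23 to 40 in p42 LPS. Their contacts in p30 are unknown. Other bins within Pik3c2b were looped in p30 as well, at 45, 50, 55 and 60 kb in p30 LPS (15 to 21 contacts) and at 40 kb in p30 UT (18).

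**Figure D3:**
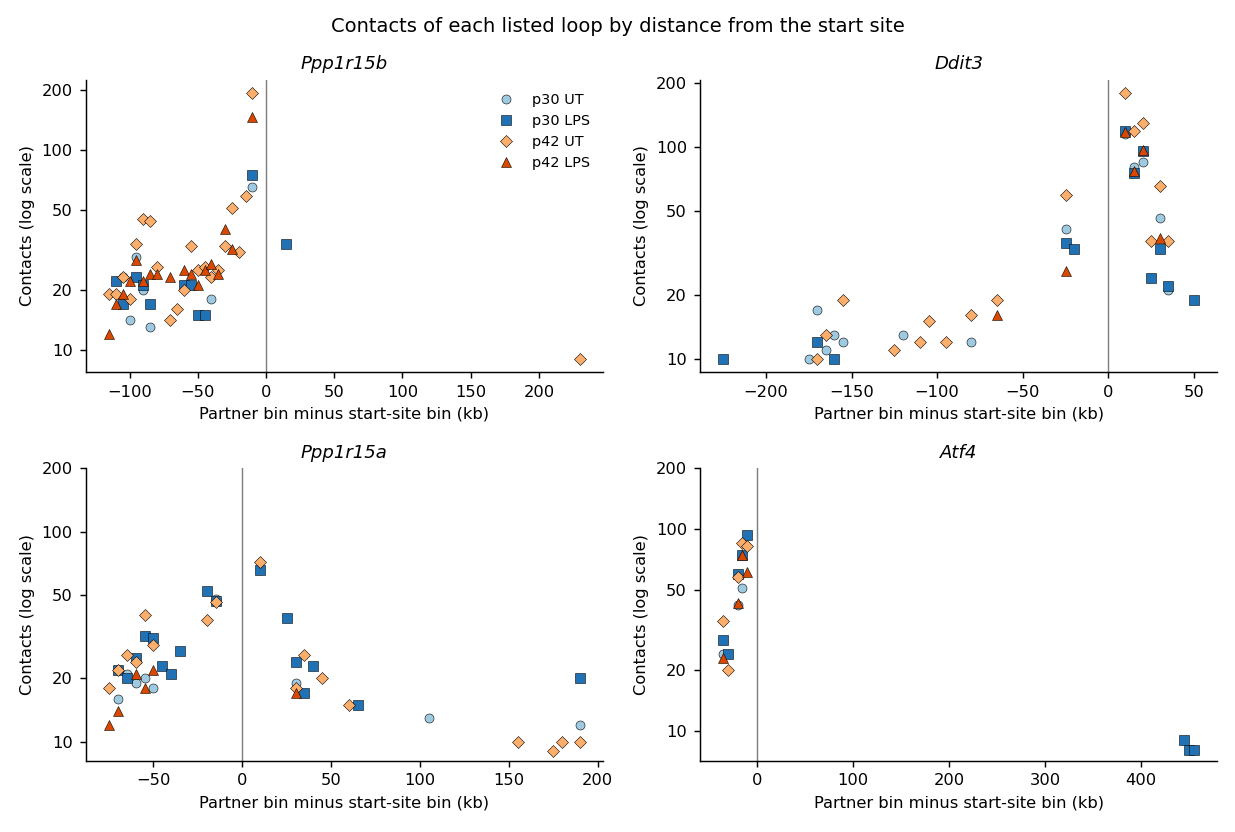
Contacts of each listed promoter loop (vertical axis, log scale) against the position of its partner bin relative to the start-site bin in kb (horizontal axis, in genome direction) for Ppp1r15b, Ddit3, Ppp1r15a and Atf4, coloured by list. At Ppp1r15b the loop 10 kb to the left held 193 and 147 contacts in the p42 lists and 65 and 75 in the p30 lists.

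Ppp1r15a, the inducible counterpart on chromosome 7 (45172340 to 45175692, minus strand), had 9 promoter loops (UT) and 17 (LPS) in p30 and 17 (UT) and 6 (LPS) in p42, and 9, 17, 7 and 6 in lists of equal size. With the start sites of all its transcripts it had 17, 29, 31 and 14. Its bin (45175001 to 45180000) also holds the start site of Plekha4, and loops of both genes cannot be told apart. The 5 loops in all 4 lists held 92 contacts (UT) and 134 (LPS) in p30 and 133 (UT) and 92 (LPS) in p42, raw sums from lists of unequal depth. LPS over UT in p30 gave 59.3% from LPS (52.8 to 65.5) against 44.7% by modelled contacts (adjusted p = 0.000225, exact binomial test), and against 48.4% by expected counts (adjusted p = 0.0335). Against the median gene the log2 ratio was 0.57 (adjusted exact p = 0.0790). After LPS p42 gave 40.7% of the contacts of both isoforms (34.5 to 47.2) against 52.2% (adjusted exact p = 0.0068), and relative to the median gene the log2 ratio was -0.42 (adjusted exact p = 0.243). At q under 0.001 this call was lost too (-0.67, adjusted exact p = 0.109). Coverage of the bin was also highest in p30 LPS, with 7169 reads (UT) and 8970 (LPS) in p30 and 8464 (UT) and 5410 (LPS) in p42. Scaled to peak bins, its ratio of LPS to UT in p30 lay above 93.9% of start-site bins, and its p42 to p30 ratio after LPS above 5.84%.

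Downstream of Ppp1r15a, loops in all 4 lists reached the start sites of Ftl1, the ferritin light chain gene (16, 22, 22 and 14 contacts at 70 kb), and of Bax, a pro-apoptotic BCL2 family gene (19, 25, 24 and 21 contacts at 60 kb). In both loops p30 LPS had at least as many contacts as any other list. The start site of Nucb1, 20 kb downstream, was joined in p30 LPS and p42 UT, with 52 and 38 contacts. The start-site bins of Hsd17b14 and Bcat2, 25 and 40 kb upstream, were listed in p30 LPS alone, with 39 and 23 contacts. Other bins of both genes were joined elsewhere. An exonic bin of Hsd17b14 at 30 kb was in all 4 lists (19, 24, 18 and 17 contacts), and exonic bins of Bcat2 at 45 and 60 kb were in p42 UT (20 and 15). The start-site bins of Ntn5 and Dbp, 155 and 175 kb upstream, were listed in p42 UT alone, with 10 and 9. Contacts of pairs that are not listed are unknown. A bin 190 kb upstream with the start sites of Rpl18 and Sphk2 had 12 contacts in p30 UT, 20 in p30 LPS and 10 in p42 UT. In p30 LPS this was 11.1 times the expected number, and 3.95% of promoter loops in that list had a higher ratio.

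Atf4 lies on chromosome 15 (80139372 to 80141745, plus strand) and had fewer promoter loops than most of the set, though more than the median gene, with 3 (UT) and 8 (LPS) in p30 and 5 (UT) and 4 (LPS) in p42. Its start-site bin (80135001 to 80140000) held no start site of another coding gene. The loops within 35 kb all led upstream, to Mief1, a gene of mitochondrial fission, and beyond it. The bin with the start site of Mief1, at 20 kb, gave 42 contacts (UT) and 60 (LPS) in p30 and 58 (UT) and 43 (LPS) in p42, and the bin at 15 kb, with the predicted gene Gm55359, gave 51, 74, 85 and 74. The loop at 10 kb, over an exon of Mief1, was listed with 93 contacts in p30 LPS and with 82 (UT) and 61 (LPS) in p42, but was not listed in p30 UT, where its contacts are unknown. The 3 loops at 445 to 455 kb downstream were in p30 LPS alone with 8 to 9 contacts each.

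The 3 loops of Atf4 in all 4 lists held 117 contacts (UT) and 162 (LPS) in p30 and 178 (UT) and 140 (LPS) in p42. In this sum p30 UT was the lowest list. In UT 60.3% came from p42 (54.7 to 65.8), where modelled contacts gave 51.4% (adjusted p = 0.0112, exact binomial test) and expected counts 51.6% (adjusted p = 0.0255). Against the median gene the log2 ratio was 0.19 (adjusted exact p = 0.656), and with loops of at least 20 kb it was 0.41 relative to modelled contacts (adjusted exact p = 0.218). LPS over UT in p30 gave 58.1% (52.2 to 63.7) against 44.7% by modelled contacts (adjusted exact p = 0.000157), against 49.3% by expected counts (adjusted exact p = 0.0587), and relative to the median gene a log2 ratio of 0.50 (adjusted exact p = 0.0976). After LPS p42 gave 46.4% (40.8 to 52.0), where modelled contacts gave 52.2%, and was not called (adjusted exact p = 0.164). With all loops found in both LPS lists Atf4 was called lower in p42 (log2 ratio -0.47, adjusted exact p = 0.00729), where 14.5% of 6081 genes were called in either direction. Over loops in all 4 lists, the log2 ratio after LPS relative to the median gene was -0.09 (adjusted exact p = 0.952). Coverage of the bin was 4954 reads (UT) and 5761 (LPS) in p30 and 6434 (UT) and 4148 (LPS) in p42, and its p42 to p30 log2 ratio lay above 55.9% of start-site bins in UT and 27.7% after LPS. Susd6, Cox6a2 and Rab3gap1 were the genes with the most similar order of contacts over the 4 lists, at Euclidean distances of 0.0433, 0.0672 and 0.0681 between centred log2 values, among 2928 genes.

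Ddit3, on chromosome 10 (127124268 to 127132163, plus strand), had 13 promoter loops (UT) and 12 (LPS) in p30 and 16 (UT) and 6 (LPS) in p42, and 13, 12, 12 and 6 in lists of equal size. Counted over all its transcripts there were 20, 17, 25 and 10. Its highest raw contact counts, at 10 to 20 kb, were with Mars1, the methionyl-tRNA synthetase gene next to it. The bin at 10 kb gave 115 contacts (UT) and 119 (LPS) in p30 and 179 (UT) and 117 (LPS) in p42, and the bin with the Mars1 start site, at 20 kb, gave 85, 95, 129 and 96, which was 5.56, 7.10, 6.83 and 6.60 times the expected number. Raw contacts of both loops were highest in p42 UT, while contacts over expected at the Mars1 start site were highest in p30 LPS. Further loops in all 4 lists reached the start sites of Arhgap9 (30 kb downstream, with 46, 33, 65 and 37 contacts) and of Dctn2 (25 kb upstream, with 41, 35, 59 and 26). Loops over 60 kb upstream, to an exonic bin of Kif5a, to the start sites of Pip4k2c, Dtx3, Slc26a10, B4galnt1 and Os9 and to bins between and beyond them, had 10 to 19 contacts. Of these only the one in Kif5a, at 65 kb, was listed in p42 LPS, with 16 contacts. These far loops held the highest ratios to expected contacts of the gene in both UT lists, 9.18 at 170 kb (Os9) in p30 UT and 7.90 at 155 kb in p42 UT.

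The 5 loops of Ddit3 in all 4 lists held 367 contacts (UT) and 357 (LPS) in p30 and 551 (UT) and 353 (LPS) in p42. In UT 60.0% came from p42 (56.8 to 63.1), against 51.4% by modelled contacts (adjusted p = 2.87e-06, exact binomial test) and 53.8% by expected counts (adjusted p = 0.00262), and relative to the median gene the log2 ratio was 0.17 (adjusted p = 0.341). LPS over UT in p42 gave 39.05% (35.9 to 42.3) against 45.5% (adjusted exact p = 0.00127), with a log2 ratio of -0.07 relative to the median gene (adjusted exact p = 0.882). After LPS the share of p42 was 49.7% (46.1 to 53.4), where modelled contacts gave 52.2% (adjusted exact p = 0.420). Coverage of its bin (127125001 to 127130000) was 8979 reads (UT) and 10032 (LPS) in p30 and 12635 (UT) and 7095 (LPS) in p42.

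Atf5, on chromosome 7 (44461680 to 44466082, minus strand), had 10 promoter loops (UT) and 14 (LPS) in p30 and 18 (UT) and 10 (LPS) in p42, and 9, 13, 9 and 10 in lists of equal size. The start sites of Il4i1 and Nup62 lie in the same bin (44465001 to 44470000), so these loops belong to all of them. Contacts at the 4 loops in all lists numbered 117 (UT) and 139 (LPS) in p30 and 144 (UT) and 117 (LPS) in p42. LPS over UT in p30 gave 54.3% (48.2 to 60.3) against 44.7% (adjusted p = 0.0153, exact binomial test), and relative to the median gene a log2 ratio of 0.27 (adjusted p = 0.567). This call was lost at q under 0.001 and with loops of at least 20 kb (adjusted exact p = 0.197 and 0.0932). Relative to modelled contacts the log2 ratios were then 0.44 and 0.59, where the main setting gave 0.56. With all loops found in both LPS lists Atf5 was called lower in p42 (log2 ratio -0.355, adjusted exact p = 0.0264), where 14.5% of 6081 genes were called in either direction. Over loops in all 4 lists, the log2 ratio after LPS relative to the median gene was -0.12 (adjusted exact p = 0.908). The share of p42 in UT was 55.2% (49.1 to 61.1), with no call (adjusted exact p = 0.396). The loop with the highest ratio to expected contacts joined the shared start site of Vrk3 and Zfp473, 70 kb downstream, with 29, 29, 37 and 21 contacts, 8.71, 9.51, 10.1 and 7.07 times the expected number. Upstream, bins with the start sites of Akt1s1 (encoding an mTORC1 subunit) and Tbc1d17 at 30 kb and of Ptov1 at 50 kb were joined in all lists.

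Atf3, on chromosome 1 (190902493 to 190950241, minus strand), had 2 promoter loops (UT) and 1 (LPS) in p30 and 6 (UT) and 4 (LPS) in p42, and 2, 1, 2 and 4 in lists of equal size. All 8 different loops led upstream of the canonical start site, and the gene's longer transcripts extend over the nearest of these bins. The loop at 10 kb, in an intron of these transcripts, had 65 contacts in p30 LPS and 83 (UT) and 74 (LPS) in p42, 1.78, 1.93 and 1.68 times the expected number, and was not listed in p30 UT. The intronic bins at 15 and 20 kb were looped in p42 UT alone. Bins without coding genes at 80 to 95 kb gave 10 to 14 contacts, with 2 such loops in p30 UT and 2 (UT) and 3 (LPS) in p42. Coverage of the start-site bin was the lowest of the 8 genes whose bin was listed, with 2517 reads (UT) and 2099 (LPS) in p30 and 2814 (UT) and 2289 (LPS) in p42. The ratio of LPS to UT in p42 was 0.813, where the median start-site bin had 0.605, and 96.5% of 6438 bins had a lower ratio.

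Sesn2, on chromosome 4 (132219335 to 132237815, minus strand), had 5 promoter loops (UT) and 6 (LPS) in p30 and 14 (UT) and 6 (LPS) in p42, and 5, 6, 11 and 6 in lists of equal size. All 15 different loops led downstream, over the gene's own body and on to Med18 and Phactr4. The bin with the start site of Med18, a Mediator subunit gene, at 45 kb, was in all lists with 31, 22, 43 and 29 contacts, 8.62, 7.73, 9.78 and 8.18 times the expected number. It was the single loop that could be tested, and the share of p42 was 58.1% in UT (46.7 to 68.7) and 56.9% after LPS (43.3 to 69.5), neither of them called (adjusted p = 0.462 and 0.811, exact binomial test). The start site of Phactr4, at 90 kb, was joined with 18 contacts in p30 UT and 22 (UT) and 24 (LPS) in p42, and was not listed in p30 LPS. Start-site coverage was 3265 reads (UT) and 2843 (LPS) in p30 and 5227 (UT) and 3332 (LPS) in p42. Its scaled p42 to p30 ratio lay above 90.1% of start-site bins in UT and above 96.5% after LPS.

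Ddit4, on chromosome 10 (59785491 to 59788492, minus strand), had 14 promoter loops (UT) and 11 (LPS) in p30 and 16 (UT) and 11 (LPS) in p42, and 14, 10, 13 and 11 in lists of equal size. Of its 19 different loops 8 were in all 4 lists, the most of any member. Its loop with an exonic bin of Dnajb12, a gene for a DnaJ co-chaperone, 55 kb downstream (59730001 to 59735000), had 88 contacts (UT) and 64 (LPS) in p30 and 101 (UT) and 70 (LPS) in p42. These were 21.4, 20.1, 23.2 and 19.3 times the expected number, the highest ratios of the set in each list, where promoter loops had medians of 4.63, 4.67, 4.56 and 4.64. At most 0.532% of promoter loops had a higher ratio in any list. A difference between the isoforms was not detectable at this depth, with 53.4% of contacts from p42 in UT (46.3 to 60.4) and 52.2% after LPS (43.8 to 60.5), where expected counts gave 51.5% and 53.3%. A bin with the start sites of Anapc16 and Ascc1, 50 kb upstream, was also joined in all lists, with 22, 17, 21 and 13 contacts.

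The 8 loops of Ddit4 in all 4 lists held 322 contacts (UT) and 263 (LPS) in p30 and 401 (UT) and 265 (LPS) in p42. LPS over UT in p42 gave 39.8% (36.1 to 43.6) against 45.5% (adjusted p = 0.0196, exact binomial test), at a log2 ratio of -0.03 relative to the median gene (adjusted p = 1). The share of p42 was 55.5% in UT (51.8 to 59.0) against 51.4% and 50.2% after LPS (45.9 to 54.4) against 52.2%, neither of them called (adjusted exact p = 0.0816 and 0.624). With all loops found in both UT lists Ddit4 was called higher in p42 (log2 ratio 0.31, adjusted exact p = 0.00892), where 22.3% of 7002 genes were called in either direction. Over loops in all 4 lists, the UT log2 ratio relative to the median gene was -0.10 (adjusted exact p = 0.718). Start-site coverage was 3545 reads (UT) and 2821 (LPS) in p30 and 5026 (UT) and 3367 (LPS) in p42, and its scaled p42 to p30 ratio lay above 74.0% of start-site bins in UT and 96.9% after LPS.

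**Figure D4:**
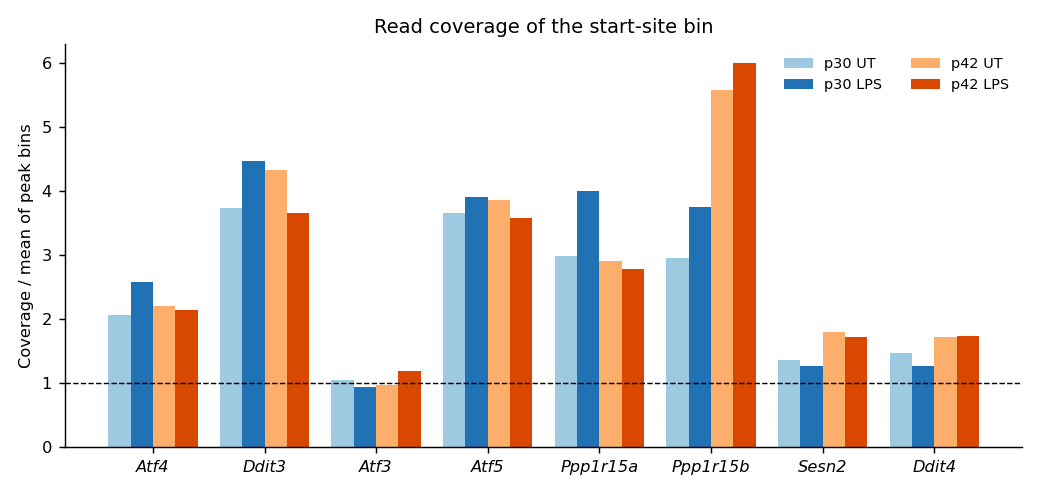
Read coverage of the start-site bin of 8 genes divided by the mean coverage of peak bins in the same list (vertical axis, dashed line at 1), with 1 bar per list and no error bars since lists are pooled. Ppp1r15b stood at 5.59 and 6.00 in the p42 lists and at 2.96 and 3.75 in the p30 lists.

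Chac1, on chromosome 2 (119180757 to 119184866, plus strand), had no promoter loop in any list, and its start-site bin (119180001 to 119185000) did not occur in the lists at all. Its coverage is therefore unknown here. Within 10 kb of this bin, p30 had 1 listed bin in UT and 1 in LPS, and p42 had 2 and 2, with 1, 2, 3 and 2 loops in the same order. The absence of a listed loop does not show absence of contacts, since pairs below the threshold are not in the lists.

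The rest of the response was examined through gene lists chosen by function. Of 22 other genes of the integrated stress response 17 had a promoter loop, with none at Eif2ak4, Asns, Vldlr, Slc7a11 and Shmt2, and 5 had loops in all 4 lists. In UT 3 of the 5 had more contacts in p42 (30% of all genes) and 0 fewer, namely Cebpb, which encodes another C/EBP factor, Gdf15, a stress-induced cytokine gene, and Nupr1, a stress-induced chromatin regulator gene. The median log2 ratio of the 5 was 0.31, where all genes had 0.34. Cebpb held 119 contacts (UT) and 145 (LPS) in p30 and 224 (UT) and 211 (LPS) in p42, with 65.3% from p42 in UT (60.1 to 70.1; adjusted p = 3.97e-06, exact binomial test) and 59.3% after LPS (54.1 to 64.2; adjusted p = 0.0469). Gdf15 held 433, 494, 544 and 364 contacts in the same order and went the other way after LPS, with 42.4% from p42 (39.2 to 45.8; adjusted exact p = 6.47e-07). Pck2, the mitochondrial phosphoenolpyruvate carboxykinase gene, was lower in p42 after LPS as well (43.3%, 37.9 to 48.9; adjusted exact p = 0.0161). After LPS 1 of the 5 was thus higher in p42 (0.873% of all genes) and 2 lower (16.2%; median 0.01, all genes -0.25). LPS went with more contacts in p30 at 3 of 5 (Cebpb, Gdf15 and Pck2; 18.9% of all genes; median 0.47, all genes 0.28) and with fewer in p42 at Gdf15 (24.9% of all genes; median -0.12, all genes -0.31). Relative to the median gene, Cebpb was called higher in p42 in UT (7.6% of all genes, either direction), Cebpb and Nupr1 higher and Gdf15 lower after LPS (5.48%), and Cebpb higher with LPS in p42 (2.1%). Relative to expected counts Cebpb and Gdf15 were called in UT (15.5%) but Nupr1 was not (adjusted exact p = 0.110), Gdf15 was called with LPS in p30 (5.32%) and in p42 (8.31%), and none of the 5 was called between the isoforms after LPS (2.58% of all genes; adjusted exact p = 0.707 for Cebpb, 0.0708 for Gdf15 and 0.265 for Pck2).

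Of 18 genes of the unfolded protein response, which senses misfolded protein in the endoplasmic reticulum, 17 had a promoter loop and 11 could be tested. In UT 5 of 11 had more contacts in p42 (30% of all genes) and 0 fewer: Ern1, which encodes the sensor IRE1, Atf6, a further sensor gene, the chaperone genes Hsp90b1 and Hyou1, and Syvn1, a ubiquitin ligase gene of protein degradation. Hyou1 was named after its value was seen. The median log2 ratio of the 11 was 0.72, against 0.34 over all genes. Ern1 held 299 contacts (UT) and 310 (LPS) in p30 and 571 (UT) and 349 (LPS) in p42, and 65.6% came from p42 in UT (62.4 to 68.7; adjusted p = 2.50e-15, exact binomial test). Syvn1 held 289 (UT) and 351 (LPS) in p30 and 437 (UT) and 314 (LPS) in p42, with 60.2% from p42 in UT (56.6 to 63.7; adjusted exact p = 2.56e-05). After LPS the binomial test called 0 of 11 between the isoforms (0.873% of all genes higher and 16.2% lower; median -0.28, all genes -0.25), and 2 had an unadjusted p under 0.05, both lower in p42, as had 25.9% of all genes. LPS went with more contacts in p30 at Ern1, Atf6 and Syvn1 (3 of 11, 18.9% of all genes; median 0.41, all genes 0.28) and with fewer in p42 at Hsp90b1 and Ern1 (2 of 11, 24.9% of all genes; median -0.38, all genes -0.31). Relative to the median gene, Ern1 in UT was the single call among the 11 in the 4 comparisons, where 7.6%, 5.48%, 3.45% and 2.1% of all genes were called. Relative to expected counts Hsp90b1, Ern1 and Syvn1 were called in UT (15.5% of all genes), Atf6 and Hyou1 were not (adjusted exact p = 0.454 and 0.267), and Syvn1 was called with LPS in p30 (5.32%).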

How the data were processed

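H3K27ac HiChIP was carried out in duplicate in 4 groups of HPC-7 cells. Per the study's methods and processing notes, reads were mapped to mm39 with BWA 0.7.17, ligation events and duplicates were handled with pairtools, and loops were called with FitHiChIP. The authors deposited 1 list per group in bins of 5 kb at a q-value under 0.01; how replicates were pooled was not stated. Contact counts deposited by the authors are whole ligation products per bin pair, and deposited coverage counts are reads per bin, both not normalized. The deposited expected count was estimated by the caller for each pair from distance and coverage. The deposited coverage bias is the ratio of a bin's coverage to the mean of its class (peak or other), and the deposited contact probability is a fraction of modelled contacts. The deposited p-value and q-value are binomial, with Benjamini-Hochberg adjustment. Only significant pairs are listed, so contacts of other pairs are unknown, and correction for coverage can remove part of a difference in contacts where H3K27ac differs.

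Lists were read with Python 3.11.15 and pandas 2.3.3. Start sites came from GENCODE M39, 1 gene per symbol. Modelled contacts were obtained by dividing the expected count by the contact probability. Exact binomial tests (scipy 1.17.1) compared summed contacts of 2 lists. The test was also run on simulated data, which held counting error only. Promoters were searched in the GRCm39 genome. Of the promoters and partner genes, 2 items are not reported here. Genes named are the members, coding genes with a start site in a partner bin, up to 8 pathway genes by adjusted p, and the 3 genes closest to Atf4. Hyou1 and the 5 pathway genes without a loop were named outside this rule, after their values were seen. Members and lists were chosen with earlier results of these data known. Alternatives were lists of equal size, stricter q-values (0.001 and 1e-05), wider or additional start-site bins, merged bin pairs, loops of at least 20 kb, other null shares, loops of the pair, at least 50 contacts, 1 bin of slack and another coverage scale.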

Additional observations from a re-analysis of the deposited data

Results flagged for a closer look

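At 6 of the 7 genes with loops in all 4 lists, contacts per modelled contact were higher after LPS in p30 and lower after LPS in p42. These are signs only, and no gene was called in both isoforms. The log2 ratio was 0.018 for Ddit4 in p30 (adjusted exact p = 0.971) and -0.036 for Atf5 in p42 (adjusted exact p = 0.945). The log2 ratio of LPS over UT in p30 minus that in p42 was 0.86 for Atf4, 0.65 for Ddit3, 0.59 for Atf5, 1.12 for Ppp1r15a, 0.57 for Ppp1r15b and 0.35 for Ddit4. The same opposite directions were found at 3478 of all 5040 genes (69.0%), where the median difference was 0.58 and 90% of genes lay between -0.15 and 1.23. Relative to the median gene none of the 6 had opposite directions, with log2 ratios in p30 and p42 of 0.50 and 0.22 for Atf4, -0.014 and -0.07 for Ddit3, 0.27 and 0.27 for Atf5, 0.57 and 0.039 for Ppp1r15a, 0.055 and 0.073 for Ppp1r15b and -0.27 and -0.03 for Ddit4. The differences were not tested, and each group is 1 pooled list.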

How the results depend on the processing

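No paired analysis was possible because the 2 replicates of a group share 1 list, and for the same reason no replicate could be left out. Promoter loops summed over the 9 genes (p30 UT, p30 LPS, p42 UT, p42 LPS) were 30, 50, 67 and 36 at q under 1e-05, 137, 172, 287 and 169 with start-site bins widened by 1 bin both ways, and 28, 30, 35 and 21 after merging adjacent bin pairs. Lists of equal size gave 73 in p42 UT. Members called by contacts fell to 1 for p42 over p30 in UT, 1 after LPS, 0 for LPS in p30 and 0 in p42 with the null at the median gene, and to 0 after LPS, 1 for LPS in p30 and 0 in p42 with expected counts. These nulls, of which the one at the median gene was chosen after seeing the data, called 383 and 781 of all genes in UT (1523 by modelled contacts), 276 and 130 after LPS (859), 174 and 268 for LPS in p30 (966) and 106 and 419 in p42 (1268). For p42 over p30 after LPS there were also 4 of 8 with loops of the pair (14.5% of 6081 genes), 0 of 7 at q under 0.001 (16.8% of 3992) and 1 of 7 with loops of at least 20 kb (8.32% of 4037). Relative to the median gene the log2 ratio changed sign for Atf5 (-0.12) and Ddit4 (-0.10) in UT, for Ddit3 (0.11) and Ddit4 (0.14) after LPS, for Ddit3 (-0.014) and Ddit4 (-0.27) with LPS in p30, and with LPS in p42 for Atf4 (0.22), Atf5 (0.27), Ppp1r15a (0.039), Ppp1r15b (0.073) and Sesn2 (0.0028). With expected counts it changed sign for Ppp1r15b after LPS (-0.19). Coverage ratios divided by the mean of all listed bins changed sign for Ppp1r15a in UT (0.045) and with LPS in p42 for Ppp1r15b (-0.012) and Ddit4 (-0.11). With 1 bin of slack the share of the members' loops also listed was 79.8% for p42 UT in p30 UT and 96.9% for p42 LPS in p30 LPS. It was 85.0% for p30 LPS in p30 UT and 100% for p42 LPS in p42 UT. In lists of equal size it was 54.8% for p42 UT in p30 UT and 83.1% for p42 LPS in p42 UT. The matching shares over all promoter loops were not computed, so these values do not set the members apart from other genes. The cause of these changes was not tested. Depth limited loops of 10 to 30 contacts, whose intervals are wide.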
